A study of Arabidopsis thaliana with 8 samples.

Results

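The inverted repeat of the chloroplast genome was examined in sRNA libraries of *Arabidopsis thaliana* seedlings, as 264 windows of 100 bp for its first copy and 263 windows for its second copy. The windows were chosen by their number along chromosome C and make up 527 of the 1196681 windows of the genome, or 0.0440% of them. In TAIR10.1 the copies span chrC:84171-110434 and chrC:128215-154478, 26264 bp each. The counts of mirrored windows were summed, and the pair formed by windows 971 and 1414, at the start of *ndhB*, was described apart from the other 525 windows. The pair was singled out with earlier results of these data known. A total of 4 genotypes were compared at 18 days, with 2 libraries each and 8 libraries in all. *hot3-2* and *hot3-3* are T-DNA insertion mutants of HOT3, also called eIF5B1, a cytoplasmic factor that joins ribosomal subunits during translation initiation. *HOT3-EYFP* stands for a line that carries *HOT3-EYFP* under the *HOT3* promoter in the *hot3-2* background, and WT for the wild type. The labels do not say how many plants or cultures a library holds, so p-values measure the spread between these libraries, which may be technical.

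Each copy of the repeat carries the chloroplast ribosomal RNA operon (*rrn16*, *rrn23*, *rrn4.5* and *rrn5*, with tRNA genes between them). It also carries *ndhB*, a subunit gene of the NADH dehydrogenase-like complex of the thylakoid membrane, genes of ribosomal proteins and the large gene *ycf2*. Only a part of the large gene *ycf1* (chrC:109405-110434 in the first copy) and of *rps19* (chrC:84171-84283) lies within the repeat. Chloroplast transcripts are trimmed by exonucleases, and helical repeat proteins such as pentatricopeptide repeat proteins bind RNA and stop the trimming. The RNA under such a protein can remain as an sRNA of one sharp length, called a footprint, whereas degraded rRNA gives sRNAs of all lengths. CRR2, a pentatricopeptide repeat protein, is needed for processing between *rps7* and *ndhB*, and RAP, an octotricopeptide repeat protein, for maturation of the 5′ leader of *rrn16*. None of these proteins was measured in these libraries.

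Total counts of sRNAs of 18 to 26 nt ranged from 6793502 to 8210328 per library, and the repeat held 10.2% to 12.2% of them. The first copy received 347421 to 467850 reads per library and the second copy 347899 to 468604 reads, and the copies differed by -1.29 to 1.44 SD of counting noise. In the windows of *HOT3* itself the *HOT3-EYFP* libraries had 535 and 471 reads, against 18 and 19 reads in *hot3-2*, 28 and 24 reads in *hot3-3* and 17 and 29 reads in WT, so the transgenic line stood apart from the others. The share of nuclear 45S rDNA was 33.7% and 34.0% in *hot3-2*, 40.5% and 40.8% in *hot3-3*, 52.1% and 52.2% in *HOT3-EYFP* and 44.0% and 44.3% in WT. Shares of all counts move with this share, so the shares of the pair and of the other repeat windows were also taken over counts outside 45S rDNA. Levels are therefore also given as CPM, counts scaled to a common library size that the TMM method of edgeR had corrected.

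The sequences below are those under the main peaks of one read length, from RefSeq (TAIR10.1), written 5′ to 3′ on the strand of the neighbouring gene. The counts hold no strand, so the strand of the sRNAs is not known. Each stretch was narrowed to the bases that the most frequent read length could cover in view of where its reads were counted in both copies. This takes each read as counted in the window of its leftmost base, a rule that the sources do not state. Of 35 miRNAs that cross a window edge, 27 had more reads in that window. Capitals mark annotated exons (coding sequence in *ndhB*, mature rRNA in *rrn16*). The *ndhB* stretch is shown because it is part of the region that holds the most abundant sRNA of the repeat. The reads of that sRNA may lie partly or wholly outside the printed part. The others are shown because they are the main peaks of the rRNA leaders and the peak whose levels were most like those of the pair.
ndhB start, chrC:97129-97194, minus strand: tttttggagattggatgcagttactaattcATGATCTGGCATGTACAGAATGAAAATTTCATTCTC
rrn16 leader, chrC:100931-101018, plus strand: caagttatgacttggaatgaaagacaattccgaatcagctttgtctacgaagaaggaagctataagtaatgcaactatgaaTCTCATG
rrn23 leader, chrC:104600-104649, plus strand: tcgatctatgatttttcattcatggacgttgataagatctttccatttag
ycf2/trnL spacer, chrC:93529-93620, minus strand: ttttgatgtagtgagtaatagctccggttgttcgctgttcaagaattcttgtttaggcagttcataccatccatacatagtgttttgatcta

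In the second copy these stretches lie at chrC:141455-141520, chrC:137631-137718, chrC:134000-134049 and chrC:145029-145120. Under the leftmost-base rule the 22-nt reads of the pair lay within chrC:97129-97220, of which the part next to the start codon is printed with 30 bases before the ATG. None of the 71 stretches of 22 bases within that region occurs elsewhere in the genome. Over a whole copy of the repeat, 9.73% of the 26243 stretches of 22 bases also occur in the nuclear genome and 4.39% in the mitochondrial genome. The peak was confined to its window. The window pairs beside it, 970 with 1415 and 972 with 1413, held 2 to 12 and 3 to 18 reads per library, against 198760 to 488304 reads in the pair.

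**Figure D1:**
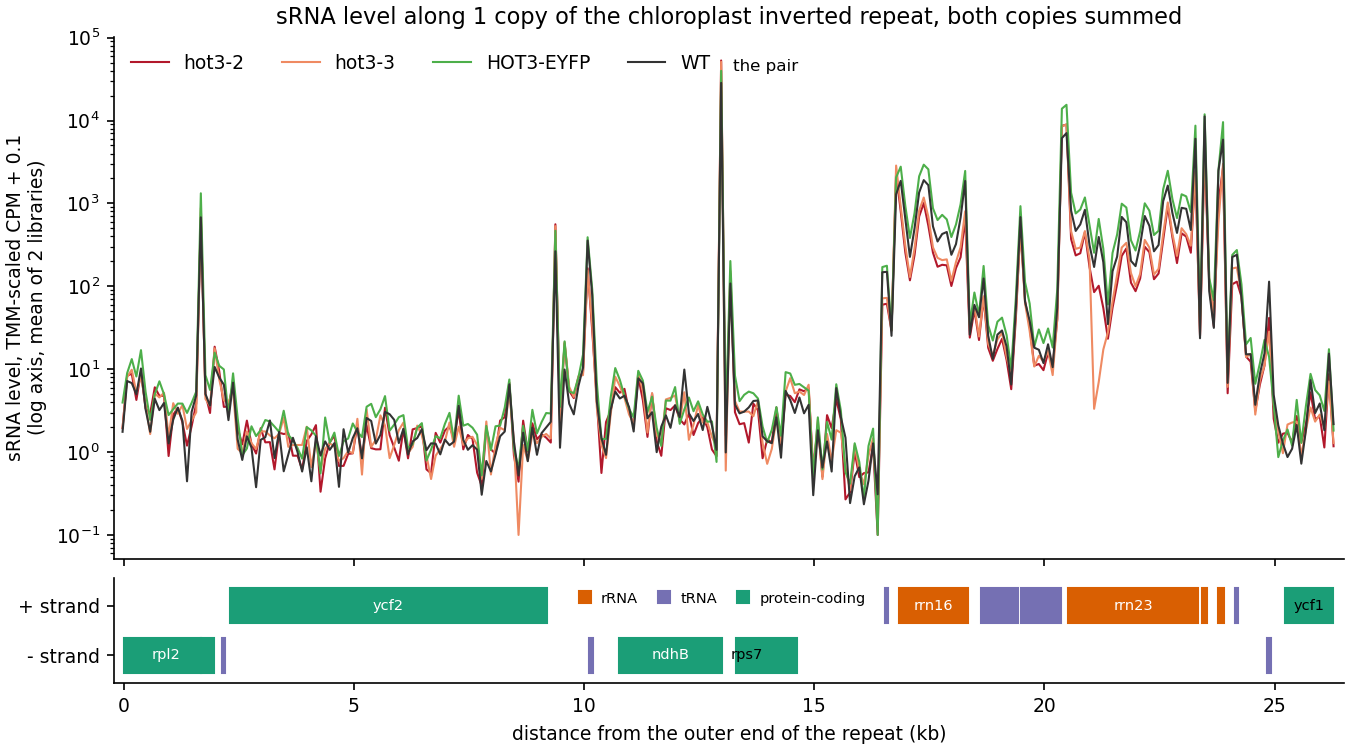
The upper panel plots the sRNA level (TMM-scaled CPM plus 0.1, log axis) of each window pair against distance from the outer end of the repeat in kb, as the mean of 2 libraries for each genotype. The lower panel maps the genes by strand. The pair at the *ndhB* start is the highest point in all 4 genotypes, the rRNA genes between 16 and 24 kb lie lower in *hot3-2* and *hot3-3* than in *HOT3-EYFP* and WT, and the rest of the repeat holds few reads outside single peaks.

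The pair at the *ndhB* start took a larger share of the sRNAs in *hot3-2* and *hot3-3* than in *HOT3-EYFP* and WT, the plants with functional HOT3. It held 6.24% and 6.57% of all counts in *hot3-2*, 5.38% and 5.35% in *hot3-3*, 3.01% and 3.09% in *HOT3-EYFP* and 2.93% and 2.94% in WT. All 4 allele libraries lay above all 4 others. The share averaged 5.88 ± 0.613% in the alleles and 2.99 ± 0.0729% in *HOT3-EYFP* and WT (SD, n = 4 each). The difference of 2.89 percentage points had an exact permutation p of 0.0286 (two-sided), below which 4 against 4 libraries cannot go, and p = 0.0484 after Benjamini-Hochberg adjustment over 22 shares and ratios. This test and those like it below treat the 8 libraries as exchangeable, although each side holds 2 genotypes of 2 libraries. Because the pair was set apart with earlier results of these data known, its p-values here and below are no independent support. The SD over 4 libraries mixes genotype and replicate spread. Within *hot3-2* and *hot3-3* it was 0.235 and 0.0266 (n = 2 each). Counting error was small beside the difference of 2.89 percentage points, with 95% Wilson intervals such as 2.91% to 2.94% in the shallowest library, which cover counting error only. The libraries come from whole seedlings, so the number of chloroplasts and the RNA per chloroplast cannot be told apart here. The chloroplast genome held 13.0% to 14.7% of all counts in the alleles and 13.2% to 14.8% in *HOT3-EYFP* and WT.

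The other repeat windows went the other way. They held 5.57% and 5.59% of all counts in *hot3-2*, 5.10% and 5.23% in *hot3-3*, 8.39% and 8.70% in *HOT3-EYFP* and 7.31% and 7.47% in WT. The alleles averaged 5.37 ± 0.246% and the plants with functional HOT3 7.97 ± 0.683% (SD, n = 4 each), a difference of -2.59 percentage points (two-sided exact permutation test, p = 0.0286). The repeat as a whole differed less, with 10.5% to 12.2% of all counts in the alleles, 11.4% and 11.8% in *HOT3-EYFP* and 10.2% and 10.4% in WT.

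The ratio of the pair to the other repeat windows needs no library size. The pair had 1.12 and 1.17 times the reads of all other repeat windows together in *hot3-2* and 1.06 and 1.02 times in *hot3-3*, against 0.359 and 0.355 times in *HOT3-EYFP* and 0.400 and 0.394 times in WT. The log2 ratio averaged 0.13 ± 0.089 in the alleles and -1.41 ± 0.090 in the plants with functional HOT3 (SD, n = 4 each), and the groups did not overlap. The difference was 1.54 on the log2 scale (two-sided exact permutation test, p = 0.0286). It was 1.53 without the windows that share a stretch of 22 bases with the rest of the genome. With the windows of rRNA genes left out of the other repeat windows the difference was 0.867, the lowest of 13 alternatives. The highest was 1.83. In *hot3-2* the pair alone made up 42.8% and 44.6% of all chloroplast sRNAs and in *hot3-3* 41.4% and 40.9%, against 20.8% and 20.9% in *HOT3-EYFP* and 22.2% and 22.1% in WT.

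**Figure D2:**
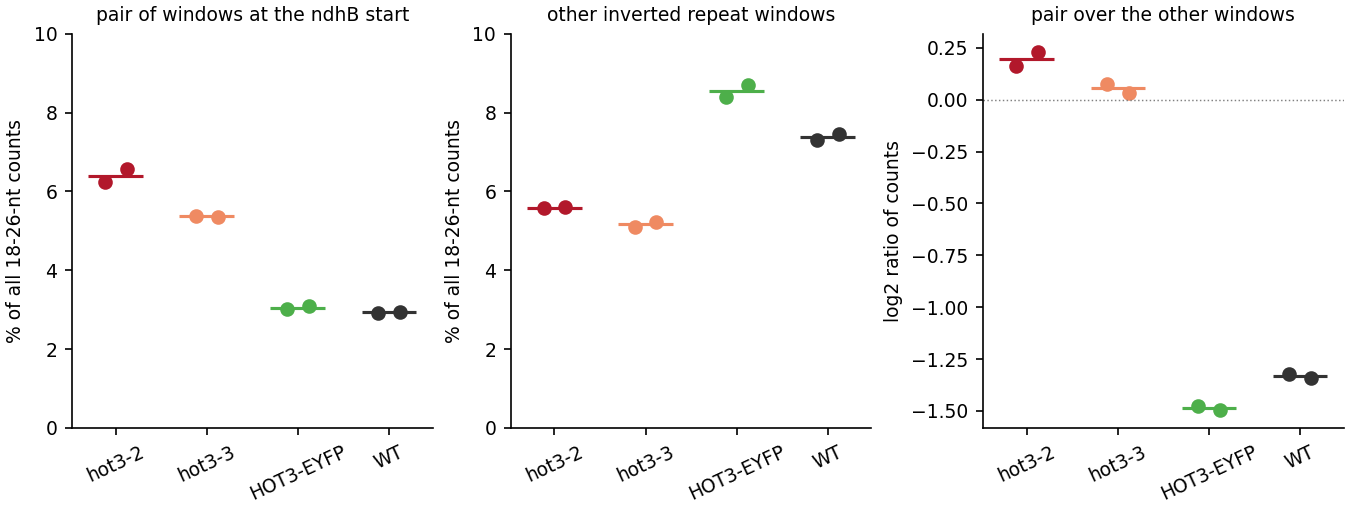
Share of all 18 to 26-nt counts in the pair (left, %) and in the other repeat windows (middle, %), and the log2 ratio of both counts (right). Points are libraries and lines are means of 2 libraries. The pair held 5.35% to 6.57% in the alleles and 2.93% to 3.09% in *HOT3-EYFP* and WT, whereas the other windows held less in the alleles.

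On the scaled level the pair had 51298 and 54836 CPM in *hot3-2*, 50946 and 51379 CPM in *hot3-3*, 39038 and 40547 CPM in *HOT3-EYFP* and 28261 and 28686 CPM in WT. Both alleles were highest, WT was lowest and *HOT3-EYFP* lay between them without overlap. In edgeR's quasi-likelihood test over the whole table the pair rose in *hot3-2* against WT by 0.90 ± 0.028 on the log2 scale (SE, adjusted p = 1.61e-07) and in *hot3-3* against WT by 0.85 ± 0.028 (adjusted p = 4.62e-07). For both alleles together against *HOT3-EYFP* and WT the change was 0.63 ± 0.019 (SE, adjusted p = 5.48e-08 in edgeR). The pair was 0.42 lower on the log2 scale in *HOT3-EYFP* than in *hot3-2* (log2 fold change -0.42, adjusted p = 2.19e-05 in edgeR), and with total counts as library size the log2 fold change was -1.07. It was also 0.48 higher in *HOT3-EYFP* than in WT (adjusted p = 1.56e-05 in edgeR), but with total counts as library size this difference was 0.06 and did not pass (adjusted p = 0.204).

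The choice of library size shifts all values together. Between the alleles and the plants with functional HOT3, the median log2 fold change of all windows was 0.06 after TMM scaling and 0.40 with total counts. Relative to that median the pair stood at 0.57 under either scaling, the other repeat windows at -0.97 and -0.96, and the other windows without rRNA genes at -0.30 and -0.29. The absolute change of the last set had opposite signs under both scalings, -0.24 after TMM and 0.10 with total counts. Against WT alone that set was higher in both alleles, by 0.22 in *hot3-2* (adjusted p = 0.0133 in edgeR, not past the limit of 0.01) and 0.27 in *hot3-3* (adjusted p = 0.00529), and by 0.45 and 0.30 with total counts, while *HOT3-EYFP* was 0.97 above WT. The scaled level of the repeat as a whole was 97133 to 101592 CPM in the alleles, 147768 and 154852 CPM in *HOT3-EYFP* and 98866 and 101421 CPM in WT, and neither allele passed the test against WT (log2 fold changes -0.01 and 0.00, adjusted p = 0.859 and 0.96 in edgeR). With total counts as library size *hot3-2* did pass (0.22, adjusted p = 7.5e-05 in edgeR).

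The pair was made up almost entirely of 22-nt and 24-nt reads. The 22-nt class held 83.1% and 85.0% of its reads in *hot3-2*, 85.1% and 86.0% in *hot3-3*, 82.0% and 83.7% in *HOT3-EYFP* and 77.2% and 77.9% in WT. Here *HOT3-EYFP* overlapped with the alleles, while WT was lowest. The difference of 4.62 percentage points between alleles and plants with functional HOT3 did not pass (two-sided exact permutation test, p = 0.0571). The 24-nt class held 10.6% and 9.10% in *hot3-2*, 8.81% and 8.11% in *hot3-3*, 11.5% and 9.99% in *HOT3-EYFP* and 16.0% and 15.2% in WT, and again only WT lay apart from the other genotypes. The difference of WT from the others was not tested for these shares. The share of 23-nt reads, 1.49% to 1.70% in the alleles and 1.73% to 2.29% in *HOT3-EYFP* and WT, did not overlap (two-sided exact permutation test, p = 0.0286).

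The level of the pair rose at all 9 lengths in the alleles against the plants with functional HOT3, each length fitted on its own table with edgeR. The 22-nt reads, 347397 to 415045 per library in the alleles against 153464 to 202755 in *HOT3-EYFP* and WT, rose by 0.68 ± 0.023 on the log2 scale (SE, adjusted p = 5.33e-12 in edgeR). The smallest change was that of the 24-nt reads, 0.30 ± 0.038 (adjusted p = 0.000299 in edgeR), and the largest that of the 26-nt reads, 1.50 ± 0.069 (adjusted p = 0.000126 in edgeR), which number 104 to 253 per library. The other repeat windows fell at 7 of the 9 lengths, from -0.65 at 18 nt to -1.14 at 22 nt, and did not pass at 25 nt (0.17, adjusted p = 0.0202 in edgeR) and 26 nt (0.23, adjusted p = 0.0236 in edgeR). With counts outside rDNA and organelles as library size the pair passed at 6 of the 9 lengths, with changes of 0.28 at 18 nt, 0.08 at 24 nt and 0.17 at 25 nt that did not pass and of 0.59 at 26 nt. The lengths at which the pair rose and the other windows fell include the 22-nt class in which the pair has most of its reads.

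**Figure D3:**
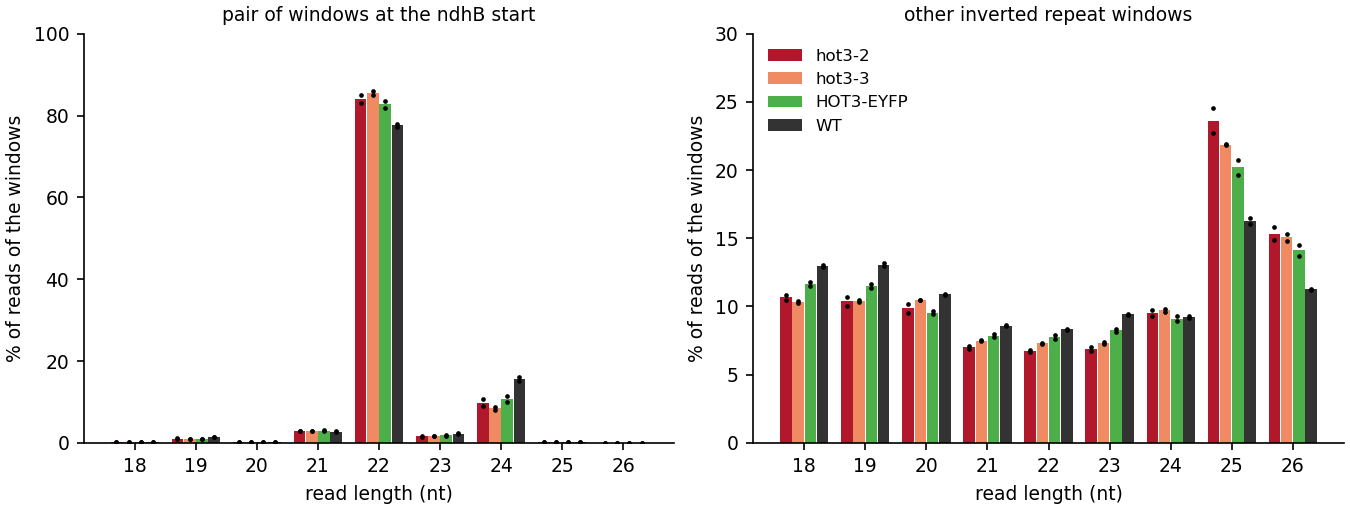
Share of reads (%) by read length (nt) within the pair (left) and within the other repeat windows (right). Bars are means of 2 libraries and points are libraries. The 22-nt class holds 77.2% to 86.0% of the pair, while the other windows spread over all lengths with 25 nt as the most frequent.

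The other repeat windows had 45835 and 46694 CPM in *hot3-2*, 48279 and 50213 CPM in *hot3-3*, 108730 and 114305 CPM in *HOT3-EYFP* and 70604 and 72735 CPM in WT (scaled level). They fell by 0.63 ± 0.025 on the log2 scale in *hot3-2* against WT (SE, adjusted p = 6.72e-07 in edgeR) and by 0.54 ± 0.025 in *hot3-3* against WT (adjusted p = 3.63e-06 in edgeR). For both alleles against *HOT3-EYFP* and WT they fell by 0.91 ± 0.018 (adjusted p = 3.73e-09 in edgeR). Windows of rRNA genes made up 46.0% to 48.4% of these reads in the alleles, 62.1% and 63.7% in *HOT3-EYFP* and 70.4% and 70.5% in WT.

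All 4 rRNA genes fell in each allele against WT and in both alleles against the plants with functional HOT3. *rrn16*, the RNA of the small subunit of the chloroplast ribosome, had 5538 and 5649 CPM in *hot3-2*, 6606 and 6734 CPM in *hot3-3*, 19594 and 19915 CPM in *HOT3-EYFP* and 12924 and 13156 CPM in WT. It fell by 1.39 ± 0.014 on the log2 scale (alleles against *HOT3-EYFP* and WT, adjusted p = 6.6e-11 in edgeR). *rrn23*, the long RNA of the large subunit, had 9309 and 9016 CPM in *hot3-2*, 10020 and 10139 CPM in *hot3-3*, 30869 and 31061 CPM in *HOT3-EYFP* and 20385 and 21009 CPM in WT, and fell by 1.40 ± 0.014. *rrn4.5* and *rrn5*, the short RNAs of the large subunit, fell by 1.34 ± 0.029 and 1.49 ± 0.10. Unlike the pair, these genes gave reads of all lengths. Summed over the windows of a gene, no length held more than 18.9% of the reads of any of the 4 genes. Single rRNA window pairs were sharper in places, such as 1074 in *rrn23* with 40.4% at 18 nt.

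Single window pairs showed the same. Of 264 window pairs, 241 had at least 10 reads in 2 libraries and were tested, and the 23 others had at most 14 reads in any library. A window pair was called when it changed at least 2-fold with an adjusted p under 0.01 in edgeR. In the alleles against *HOT3-EYFP* and WT, 47 of the 241 were called lower, where 1.64% of all 53301 features of the genome were called lower, and none was called higher, where 1.03% of all features were. The same calls numbered 22 lower and 1 higher with total counts as library size. Over all 53301 features they then numbered 358 lower and 1314 higher. In none of the 47 did the allele libraries overlap with the others. The calls were made on these same libraries, so this lack of overlap is no separate support. It was not counted over all features. Windows of rRNA genes made up 42 of the 47, out of 46 tested in these genes. The other 5 lay at *trnL*, at *trnV* and in the part of *ycf1* within the repeat. Windows of *ycf1* share sequence elsewhere, in window 1096 all 100 stretches of 22 bases with the nuclear and the mitochondrial genome. Without the fold limit 62 window pairs fell (2.69% of all features) and 3 rose (1.38% of all features). The median over the 241 was -0.47, beside 0.06 over all features.

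Fewer window pairs were called in each allele against WT. In *hot3-2* against WT 36 of the 241 window pairs were called lower (0.805% of all features), and in *hot3-3* against WT 20 (0.492% of all features), while 2 (935 and 937, 0.617% of all features) and 3 (935, 937 and 1009, 0.608% of all features) were called higher. These comparisons share the WT libraries. Scaled to total counts, 17 were called lower and 4 higher in *hot3-2*, and 19 lower and 3 higher in *hot3-3*. Over all 53301 features such calls then numbered 227 lower and 469 higher in *hot3-2*, and 236 lower and 336 higher in *hot3-3*. At 22 nt alone, 50 of 95 window pairs tested were called lower in the alleles against *HOT3-EYFP* and WT (3.55% of 8439 features). Among the rRNA windows called lower in the alleles, the largest falls after that of 1054, described below, were those of 1016 in *rrn16* (-1.77) and 1056, 1067 and 1058 in *rrn23* (-1.71, -1.67 and -1.66 on the log2 scale). Window pair 1016 had 513 to 701 CPM in the alleles, 2514 and 2641 CPM in *HOT3-EYFP* and 1623 and 1697 CPM in WT.

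Some windows of the repeat share sequence with other parts of the genome, and in a few of them libraries of 1 genotype differed widely. Window pair 1052 in *rrn23*, where all 100 stretches of 22 bases also occur in the mitochondrial genome, had 1408 and 42 reads in *hot3-2*, 23 and 29 reads in *hot3-3*, 3129 and 77 reads in *HOT3-EYFP* and 80 and 2459 reads in WT. Window pair 1053 beside it, with 80 of 100 such stretches, had 1681 and 49 reads in *hot3-2*, 59 and 52 reads in *hot3-3*, 4159 and 3441 reads in *HOT3-EYFP* and 2676 and 3018 reads in WT. Both *hot3-3* libraries were low in both window pairs, the *hot3-2* libraries differed from each other in both, and those of *HOT3-EYFP* and of WT differed in 1052 only. Neither window pair was called. Window pair 1054, with the largest called fall (-2.94 ± 0.33, adjusted p = 0.000555 in edgeR), also matches the mitochondrial genome in all 100 stretches, and 1 *hot3-2* library had 85.2 CPM, against 15.0 to 23.9 CPM in the other allele libraries. Without that library its log2 fold change was -3.53. Where the reads missing from window pairs 1052 to 1054 in some libraries were counted was not determined.

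In *rrn5* a library low in the repeat was high elsewhere. Window pair 1079, of whose 100 stretches 40 also occur on chromosome 5, had 8821 and 8967 reads in *hot3-2*, 1390 and 8217 reads in *hot3-3*, 16055 and 13340 reads in *HOT3-EYFP* and 17713 and 18189 reads in WT. The window of chromosome 5 with the matching sequence had 3736 and 3794 reads in *hot3-2*, 10532 and 3444 reads in *hot3-3*, 6814 and 5297 reads in *HOT3-EYFP* and 7974 and 8017 reads in WT. The *hot3-3* library that was low in the repeat was high on chromosome 5, and the sum over both places was 11922 and 11661 reads in the *hot3-3* libraries. The change of window pair 1079 did not pass with all libraries (-1.68, adjusted p = 0.0325 in edgeR) and passed without this library (-1.29, adjusted p = 2.73e-07 in edgeR) as well as without the other *hot3-3* library (-2.56, adjusted p = 2.45e-08).

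The fall in the rRNA genes was also present in window pairs without such matches of 22 bases. Shorter matches, and matches with a mismatch, were not searched for, so some of their shorter reads could still match elsewhere. Of the 241 window pairs tested, 141 share no stretch of 22 bases with the genome outside the repeat, and 22 of them were called lower and none higher. Of the 100 window pairs with a match, 25 were called lower and none higher. Over all features 1.64% were called lower and 1.03% higher. The 141 without a match include 20 window pairs of rRNA genes, all 20 of which were called lower, with a median of -1.28 on the log2 scale. The sum of the repeat windows without a match elsewhere, the pair left out, was lower in the alleles by 1.68 percentage points of all counts (difference -1.68, two-sided exact permutation test, p = 0.0286, n = 4 each).

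Upstream of the mature rRNAs the picture differed from that within them. The main peak of the *rrn23* leader, in the spacer between *trnA* and *rrn23*, consisted of 25-nt and 26-nt reads and was counted in window 1046 of the first copy and window 1340 of the second, so that both window pairs 1045 and 1046 hold it. Window pair 1046 had 8587 and 9287 CPM in *hot3-2*, 8813 and 9184 CPM in *hot3-3*, 14562 and 16409 CPM in *HOT3-EYFP* and 6890 and 7226 CPM in WT. The alleles lay above WT and below *HOT3-EYFP*. For the alleles against *HOT3-EYFP* and WT together the log2 fold change of window pair 1046 was -0.22 (adjusted p = 0.0073 in edgeR), and it no longer passed when any 1 of 6 of the 8 libraries was left out. The second window of window pair 1046 lies in *rrn23*: the first window alone gave -0.16 (adjusted p = 0.0375 in edgeR) and the second alone -1.42. The whole spacer did not pass (-0.14 ± 0.041, adjusted p = 0.071 in edgeR). With total counts as library size the spacer passed in the other direction (0.20, adjusted p = 0.00657 in edgeR). The spacer made up 34.8% to 38.6% of the other repeat windows in the alleles, 24.4% and 26.5% in *HOT3-EYFP* and 17.4% and 17.8% in WT.

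The leader of *rrn16* rose in the alleles, and in *HOT3-EYFP* against WT as well. Window pair 1009, which lies just before mature *rrn16* and has 20 nt as its most frequent length, had 2448 and 2271 CPM in *hot3-2*, 2883 and 2845 CPM in *hot3-3*, 2052 and 2066 CPM in *HOT3-EYFP* and 1292 and 1278 CPM in WT. The groups did not overlap, and the log2 fold change of the alleles against *HOT3-EYFP* and WT was 0.68 ± 0.029 (adjusted p = 5.15e-07 in edgeR). Window pair 1009 was also higher in *HOT3-EYFP* than in WT (0.68, adjusted p = 2.38e-05 in edgeR), and *HOT3-EYFP* against *hot3-2* did not pass (-0.20, adjusted p = 0.0257). In the alleles its direction was thus opposite to that of *rrn16* itself, and 42.3% of its reads had 1 length, against 12.5% for the most frequent length of *rrn16*. The value for *rrn16* is a sum over the windows of the gene, which can even out single peaks. Among single rRNA window pairs, 1074 in *rrn23* had 40.4% of its reads at 18 nt and fell (-1.57).

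A further peak with this pattern lay between *ycf2* and *trnL*. Window pair 935, with 54.3% of its reads at 22 nt, had 570 and 549.9 CPM in *hot3-2*, 521 and 543 CPM in *hot3-3*, 473 and 463 CPM in *HOT3-EYFP* and 262 and 267 CPM in WT. It rose by 0.63 ± 0.044 on the log2 scale (alleles against *HOT3-EYFP* and WT, adjusted p = 2.22e-05 in edgeR). *HOT3-EYFP* was also higher than WT in window pair 935 (0.82, adjusted p = 0.000136 in edgeR), and *HOT3-EYFP* against *hot3-2* did not pass (-0.26, adjusted p = 0.0484). Over the 8 libraries its log2 level was the one most like that of the pair (Pearson r = 0.963), followed by window pair 1009 (r = 0.943) and window pair 861 between *rpl23* and *trnI-CAU* (r = 0.913). These correlations describe 8 libraries that share their genotypes and library sizes and carry no test. The pair, 1009 and 935 were the 3 window pairs that rose without a fold limit.

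Outside the rRNA genes fewer of the named genes passed the test. Among the 42 genes, introns and spacers to which windows were assigned by their centre, 18 fell and 2 rose in the alleles against *HOT3-EYFP* and WT, where 2.69% of all features fell and 1.38% rose by the same limit. The 42 are sums over their windows and the percentages are over single windows and window pairs, so the rates are not directly comparable. Scaled to total counts, 11 fell and 5 rose, among them also the spacers between *trnA* and *rrn23* (0.20), *rrn4.5* and *rrn5* (0.36) and *rpl23* and *trnI-CAU* (0.60). The 2 that rose were the spacer before *rrn16* (0.67) and that between *ycf2* and *trnL* (0.25), which hold the peaks just described. The spacer between *ycf2* and *trnL* no longer passed when any 1 of the 8 libraries was left out, or in the first copy alone (0.03), and with 1 library left out 14 to 17 of the 42 passed in place of 20. Of the 7 tRNA genes 4 fell, namely *trnL* (-1.36), *trnV* (-1.28), *trnR* (-0.87) and *trnA* (-0.63), and *trnI-CAU* (-1.09, adjusted p = 0.0586 in edgeR), *trnI-GAU* (-0.46, adjusted p = 0.0192) and *trnN* did not pass. *trnN* had 21.6 and 19.0 CPM in *hot3-2*, 1.50 and 28.1 CPM in *hot3-3*, 13.7 and 10.7 CPM in *HOT3-EYFP* and 58.4 and 59.7 CPM in WT, and its window shares 48 of 100 stretches of 22 bases with the nuclear genome and 53 with the mitochondrial genome. Its log2 fold change was -0.63 (adjusted p = 0.529 in edgeR), but -2.27 (adjusted p = 0.000137) without *hot3-3* replicate 2 and -0.17 without replicate 1.

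The 8 protein-coding genes were at lower levels. Only *rpl23*, which encodes a protein of the large chloroplast ribosomal subunit, passed (-0.34, adjusted p = 0.00419 in edgeR), and with total counts as library size its log2 fold change was 0.00. It passed in only 1 of the 8 fits that left out a library (-0.37 to -0.28) and not in the first copy alone (-0.32). *rpl23* had 350 and 313 CPM in *hot3-2*, 437 and 462 CPM in *hot3-3*, 679 and 662 CPM in *HOT3-EYFP* and 362 and 348 CPM in WT, mostly from a 22-nt peak in window pair 858 that it shares with the spacer beside *rpl2*. Only *HOT3-EYFP* lay above both alleles, whereas WT overlapped with *hot3-2* and lay below *hot3-3*. The log2 fold changes of the part of *ycf1* in the repeat (-0.67, adjusted p = 0.0165 in edgeR) and of *rps7* (-0.63, adjusted p = 0.0325) did not pass. Nor did those of *rpl2* (-0.36), *ycf2* (-0.23), *rps19* (-0.19) and *rps12* (-0.12). As given above, *ycf1* windows share sequence with the nuclear and mitochondrial genomes. *ycf1* and *ycf2* encode large proteins of the chloroplast envelope, and *rps7*, *rps12*, *rps19* and *rpl2* ribosomal proteins.

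The reads of *ndhB* outside the pair did not follow the pair. The other windows of the gene had 49.9 and 45.8 CPM in *hot3-2*, 53.3 and 50.9 CPM in *hot3-3*, 64.9 and 60.4 CPM in *HOT3-EYFP* and 58.2 and 50.4 CPM in WT, far below the level of the pair. Their log2 fold change was -0.22 ± 0.091 (adjusted p = 0.161 in edgeR), and that of the *ndhB* intron -0.12 ± 0.12 (adjusted p = 0.591). The single-copy regions hold 10 further *ndh* genes, which encode other subunits of the same complex. Of these 10, 4 fell (*ndhA*, *ndhD*, *ndhG* and *ndhI*) and none rose, with a median of -0.47 and a range of -0.60 to 0.40, beside 2.69% of all features that fell. That percentage is again over single windows and window pairs, whereas the value of a gene is a sum over its windows. With any 1 library left out only 0 or 1 of the 10 passed. Scaled to total counts none of the 10 fell, and *ndhF* (0.45) and *ndhH* (0.74) rose.

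**Figure D4:**
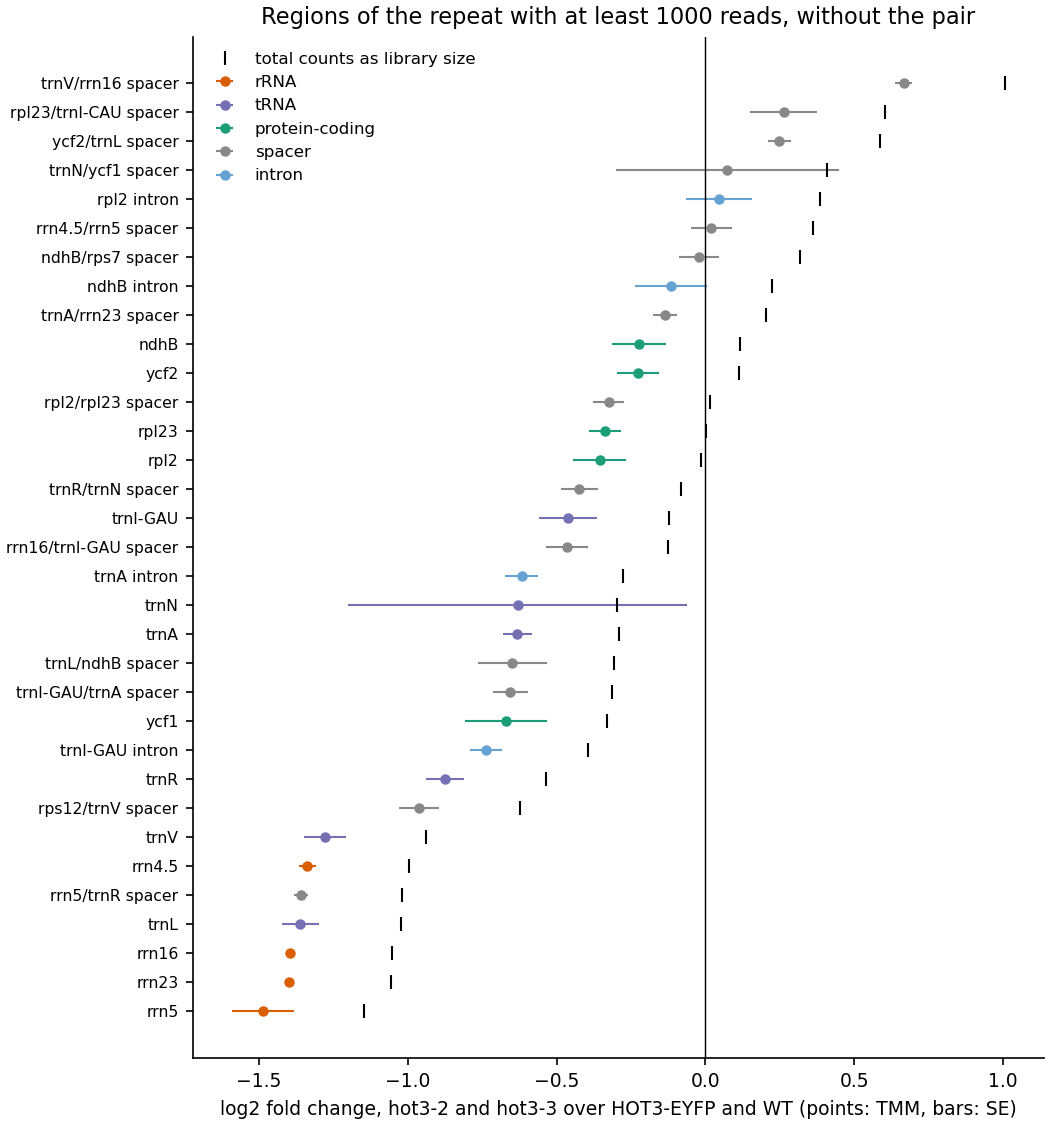
Log2 fold change of hot3-2 and hot3-3 over HOT3-EYFP and WT for the genes, introns and spacers of the repeat with at least 1000 reads in all, the pair left out. Points with bars are TMM-scaled values with their SE and ticks are values with total counts as library size. The 4 rRNA genes lie between -1.34 and -1.49, and the spacer before *rrn16* is highest at 0.67.

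The transgene was compared with its background and with WT. In *HOT3-EYFP* against *hot3-2*, 56 of the 241 window pairs were called higher (1.48% of all features), the other repeat windows rose by 1.27 ± 0.025 on the log2 scale (SE, adjusted p = 2.45e-09 in edgeR), and all 4 rRNA genes rose. With total counts as library size the rise of the other windows was 0.61, and 30 window pairs were called higher and 1 lower. Over all 53301 features, 277 were then called higher and 1408 lower. In *HOT3-EYFP* against WT only 4 of the 241 were called higher (0.216% of all features), but the other repeat windows also rose, by 0.64 ± 0.025 (adjusted p = 1.31e-06 in edgeR). Of the rRNA genes *rrn16* (0.60) and *rrn23* (0.58) rose against WT, while *rrn4.5* (0.09, adjusted p = 0.502 in edgeR) and *rrn5* (0.43, adjusted p = 0.323) did not pass. The *rrn23* leader window pairs 1045 and 1046 were among the 4 called higher, and the level of the pair lay between those of *hot3-2* and WT. With total counts as library size the rise of the other repeat windows in *HOT3-EYFP* against WT was 0.21 (adjusted p = 0.000316 in edgeR), and no window pair was called. Over all 53301 features, 43 were then called higher and 149 lower.

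Window pairs in which reads of 1 length prevailed and those with mixed lengths were set side by side. Among the 81 window pairs with at least 1000 reads in all, 1 length held at least 50% of the reads in 5, the pair, 1045, 935, 942 and 1082. Their log2 fold changes in the alleles against *HOT3-EYFP* and WT ran from -1.23 for 942, a 20-nt peak at *trnL*, to 0.63, with a median of -0.11, and 1 of the 5 was called lower. In the other 76 the median was -1.21, and 45 were called lower. The members of the first set thus moved in both directions, and the sets were not tested against each other.

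**Figure D5:**
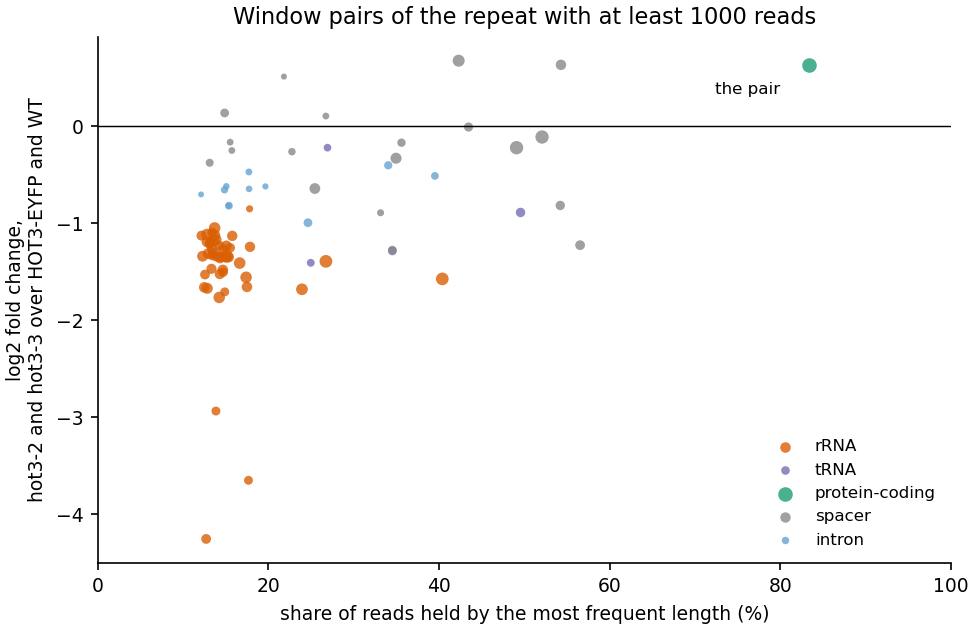
Log2 fold change of hot3-2 and hot3-3 over HOT3-EYFP and WT against the share of reads (%) of the most frequent length, for the 81 window pairs with at least 1000 reads. Point size grows with the read count and colour gives the kind of region. Most rRNA windows lie below -1 at shares under 20%, the lowest points being the window pairs with mitochondrial matches, and the pair lies at 83.3% and 0.63.

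The lengths of the other repeat windows shifted with the *rrn23* leader. The 25-nt class held 22.7% and 24.6% of their reads in *hot3-2*, 21.9% and 21.8% in *hot3-3*, 19.6% and 20.7% in *HOT3-EYFP* and 16.1% and 16.5% in WT, a difference of 4.51 percentage points between alleles and plants with functional HOT3 (two-sided exact permutation test, p = 0.0286). The 18-nt class held 10.3% to 10.9% in the alleles and 11.5% to 13.0% in the others (difference -1.82, two-sided exact permutation test, p = 0.0286). Without the windows of the spacer before *rrn23* the difference at 25 nt was -1.27 and that at 18 nt 0.535, so both signs turned when the leader peak was left out.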

How the data were processed

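The authors made 2 sRNA libraries for each of 4 genotypes from RNA cut from a gel (18 to 40 nt), trimmed the reads with cutadapt 4.2, aligned them with Bowtie and deposited raw read counts per 100-bp window and read length; featureCounts 2.0.3 and DESeq2 1.34.0 are also named in the submitters' processing notes. A placement rule for reads with several matches is stated for an alignment to 45S rDNA only; the one behind these counts is not given in the sources used here. The files keep no strand. Windows were placed on TAIR10.1; the mitochondrial assembly differed, so no mitochondrial position is given. Counts of 18 to 26 nt were summed, mirrored windows added, and the whole table (at least 10 counts in 2 libraries) was fitted with edgeR 4.0.16 (quasi-likelihood, TMM, Benjamini-Hochberg adjustment) in R 4.3.3. Genes and spacers passed at an adjusted p under 0.01, window pairs also needed a 2-fold change. Shares and ratios were compared by exact permutation. The fits were tested on simulated data. Named were all annotated genes of the repeat, the single-copy *ndh* genes as counts, the 10 highest window pairs, the 5 largest changes each way among those called, not overlapping and moving alike in each allele against WT, and the 3 window pairs most like the pair. Members and lists were chosen with earlier results of these data known.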

Additional observations from a re-analysis of the deposited data

Results flagged for a closer look

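In groups of 4 libraries (the alleles, or *HOT3-EYFP* and WT), a single library stood far from the others in 6 of 162 groups looked at, where chance gives about 5%. The highest level of the pair was 54840 CPM in *hot3-2* replicate 2, with 51379 CPM next. The level of window pair 1054 was highest at 85.21 CPM in *hot3-2* replicate 1, with 23.9 CPM next. Window pair 1079 was lowest at 173.6 CPM in *hot3-3* replicate 1, with 1007 CPM next. *ycf2* was lowest at 94.19 CPM in *hot3-3* replicate 2, with 102.5 CPM next, and the *ndhB* intron at 16.64 CPM in WT replicate 1, with 20.7 CPM next. The share of 18-nt reads in the pair was lowest at 0.1881% in *HOT3-EYFP* replicate 2, with 0.227% next.

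The alleles differed from each other in *rrn16*, which was higher in *hot3-3* than in *hot3-2* by 0.254 on the log2 scale (adjusted p = 0.0002131 in edgeR).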

How the results depend on the processing

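Over 109 results and 1628 alternatives, 1434 kept their direction and side of the threshold; counts below are of the window pairs, or of the genes and spacers, that passed. With total counts as library size, 1314 features of the genome were called higher and 358 lower in the alleles, against 548 and 873 after TMM; the pair in *HOT3-EYFP* against WT was 0.0551, *ndhB* 0.12, the *rpl2*/*rpl23* spacer 0.0142, *rpl23* 0.00283, *rps12* 0.22, *rps19* 0.15, *ycf2* 0.11, the windows without rRNA genes 0.10, 1045 0.23 and 1046 0.12; window pairs numbered 21 (*hot3-2* against WT), 0 (*HOT3-EYFP* against WT), 31 (*HOT3-EYFP* against *hot3-2*), 23 (alleles) and 38 (22 nt, *hot3-3*), and genes and spacers 6 and 12 (*HOT3-EYFP* against WT and *hot3-2*). At an adjusted p under 0.05 with no fold limit, window pairs numbered 59 (*hot3-2*), 63 (*hot3-3*), 54 (*HOT3-EYFP*) and 80 (alleles), and at 22 nt 54 (*hot3-3*) and 36 (*HOT3-EYFP*). At least 50 counts left 15 and, at 22 nt, 13 (*hot3-3*) and 0 (*HOT3-EYFP*). An unadjusted p under 0.01 gave 13 and, at 22 nt, 2 in *HOT3-EYFP* against WT. For these other limits the share over all features is not given. The counts thus show only how the number called moves with the limit. DESeq2 gave 19 (*hot3-3*) and 17 (*HOT3-EYFP*) genes and spacers and 0 window pairs at 22 nt in *HOT3-EYFP*; no filter gave 17 in *hot3-3*. The first copy alone gave *rps12* 0.15, the *rps12*/*trnV* spacer 0.00282, 13 genes and spacers and 0 window pairs at 22 nt in *HOT3-EYFP*; the second alone gave 7 and 2 in *HOT3-EYFP* against WT. With the pair included, the difference in share was 0.297, and in 22, 24, 25 and 26 nt 19.8, -0.90, -2.38 and -1.95. The log2 ratio of the other repeat windows to the single-copy windows was lower in the alleles (-0.37, two-sided exact permutation test, p = 0.0286). With the pair included this difference reversed to 0.24, and without rRNA genes to 0.30. Without the spacer before *rrn23* (added once the data had been seen) the differences in 18, 19, 20, 21, 22, 24, 25 and 26 nt were 0.535, 0.386, 2.74, 0.599, 0.280, -0.847, -1.27 and -1.07.

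Leaving out 1 library each, the difference ranged from -0.305 to 0.185 (20 nt, other windows), 3.62 to 5.78 (22 nt, pair) and -0.00173 to 0.00122 (26 nt, pair); lengths at which the pair passed ran from 5 to 9 (*hot3-2*, 5 without WT replicate 2) and 4 to 7 (*hot3-3*), genes and spacers from 7 to 11 (*hot3-3*), and window pairs in *HOT3-EYFP* from 2 to 4, at 22 nt 0 to 1. Replicate numbers did not pair the libraries (r -0.0907 to 0.0783 over all features, -0.84 to 0.62 over the window pairs, with 1 of 6 over 0.1); with a replicate block the pair was 0.63, the other windows -0.91 and the window pairs called 47 in the alleles. The causes were not tested.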
